A study of Caenorhabditis elegans with 2 samples.

Results

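The 42 genes described here encode parts of the mitochondrial respiratory chain of Caenorhabditis elegans, and they were taken from 19985 protein-coding genes of the WBcel235 annotation (ce11) by their symbols. A gene was included where its symbol begins with nuo (complex I), sdha, sdhb, sdhc or sdhd (complex II), ucr (complex III), cyc (cytochrome c and cytochrome c1), cox (complex IV and its assembly factors), or atp, asb or asg (complex V). The rule used no measured value. It gave 6 genes of complex I, 4 of complex II, 6 of complex III, 2 of cytochrome c, 7 subunits of complex IV, 8 assembly factors of complex IV and 9 genes of complex V. All 42 are nuclear genes, and the lists hold 0 regions on the mitochondrial chromosome, so the 12 protein-coding genes encoded there were left out and the background is 19973 genes.

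The regions come from chromatin immunoprecipitation sequencing (ChIP-seq) of LIN-40 in whole young adult hermaphrodites, 57.25 hours after synchronization as L1 larvae that had been bleached and then starved. The strain, OP485, is a transgenic line that carries LIN-40 with a C-terminal GFP-FLAG tag, and sonicated chromatin was precipitated with an antibody against GFP. There is 1 group of 2 biological replicates, numbered 3 and 4 in the labels, and no untagged or control library was analysed here. Whole animals mix all tissues, so a low signal cannot be told apart as weak binding in many cells or strong binding in few.

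The respiratory chain passes electrons from NADH through complex I, or from succinate through complex II, to coenzyme Q, then through complex III and the mobile carrier cytochrome c to complex IV, where oxygen is reduced. Complexes I, III and IV pump protons across the inner mitochondrial membrane, and complex V, the ATP synthase, uses their return to make ATP. LIN-40 is a worm homologue of the MTA proteins, which are subunits of NuRD, a chromatin complex that moves nucleosomes and removes acetyl groups from histones. Many worm transcripts are trans-spliced, so an annotated start can lie downstream of the place where transcription begins.

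Each deposited region has a summit, the base of highest enrichment, and a signal value given by the authors' peak caller. A gene was called where a summit of the authors' final list lay between 1000 bp upstream and 200 bp downstream of any of its annotated starts, here the promoter window. That final list holds 3066 summits that passed the authors' threshold on the irreproducible discovery rate (IDR), a measure of how well 2 replicates rank the same regions. Every list given to the IDR step, from the pooled replicates and from each replicate alone, holds 30000 regions, most of them weak. The signal's scale and the read depth behind it are unknown here, so values are used to describe and rank regions within a list. Values of the 2 replicates are set side by side as a description only.

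The sequences around 6 summits are shown first because they carry the strongest region of the set, examples of GAGAGA and CTGCGTCT, which are counted below, and a stretch found in 3 of the genes. They are RefSeq sequence of WBcel235 (ce11), 5′ to 3′ on the strand of the gene, with the summit at the middle base. Capitals mark GAGAGA or CTGCGTCT on either strand, and in nuo-1, atp-2 and asb-2 also a stretch covered by 3 overlapping 10-base words.
cox-5A chrIII:12905106-12905306 (plus strand): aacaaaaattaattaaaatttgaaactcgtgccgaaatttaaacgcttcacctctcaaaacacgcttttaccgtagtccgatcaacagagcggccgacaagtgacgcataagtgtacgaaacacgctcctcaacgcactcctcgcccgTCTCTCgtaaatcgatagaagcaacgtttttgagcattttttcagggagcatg
ucr-2.2 chrX:15173645-15173765 (plus strand): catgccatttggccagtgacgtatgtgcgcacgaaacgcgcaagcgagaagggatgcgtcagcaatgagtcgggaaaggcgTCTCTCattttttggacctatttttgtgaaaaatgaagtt
cyc-2.1 chrIV:4748527-4748647 (minus strand): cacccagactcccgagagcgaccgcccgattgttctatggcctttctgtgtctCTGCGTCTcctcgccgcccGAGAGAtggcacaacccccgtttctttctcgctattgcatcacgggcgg
nuo-1 chrII:11097477-11097597 (plus strand): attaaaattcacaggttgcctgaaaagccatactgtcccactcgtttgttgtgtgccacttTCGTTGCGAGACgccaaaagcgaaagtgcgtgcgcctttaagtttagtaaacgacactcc
atp-2 chrIII:5228116-5228236 (plus strand): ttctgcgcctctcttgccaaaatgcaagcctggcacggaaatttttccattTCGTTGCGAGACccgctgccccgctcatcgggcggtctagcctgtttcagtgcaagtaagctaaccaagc
asb-2 chrX:4469434-4469554 (plus strand): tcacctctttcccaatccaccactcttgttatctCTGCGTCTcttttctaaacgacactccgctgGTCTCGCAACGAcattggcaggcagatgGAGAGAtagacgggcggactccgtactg
In cox-5A the GAGAGA match, read on the opposite strand, begins 48 bases downstream of the summit. In cyc-2.1 and asb-2 both motifs stand in the same window, with the first base of CTGCGTCT 7 and 26 bases upstream of the summit and that of GAGAGA 12 and 33 bases downstream. The shared stretch contains CGTTGCGAGA, which begins 2 bases downstream of the summit in nuo-1, 8 bases upstream of it in atp-2 and, read on the opposite strand, 6 bases downstream of it in asb-2.

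Of the 42 genes, 19 had an IDR summit in the promoter window, with a Clopper-Pearson 95% interval of 29.9% to 61.3% that covers counting error over genes only. The background was 9.91% of protein-coding genes, 1979 of 19973. The 19 were spread unevenly over the complexes: 6 of 7 subunits of complex IV, 6 of 9 genes of complex V, 3 of 6 of complex III, 1 of 2 cytochrome c genes, 1 of 4 of complex II, 1 of 6 of complex I and 1 of 8 assembly factors of complex IV. The intervals of the single complexes are wide, 42.1% to 99.6% for complex IV subunits and 29.9% to 92.5% for complex V. For complex III the interval is 11.8% to 88.2%, with its lower end close to the background. Those of complex I (0.421% to 64.1%), complex II (0.631% to 80.6%), cytochrome c (1.26% to 98.7%) and the assembly factors (0.316% to 52.6%) include the background. No test between complexes or against the background was made, because genes are not replicates and the set was chosen with earlier results in view.

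**Figure D1:**
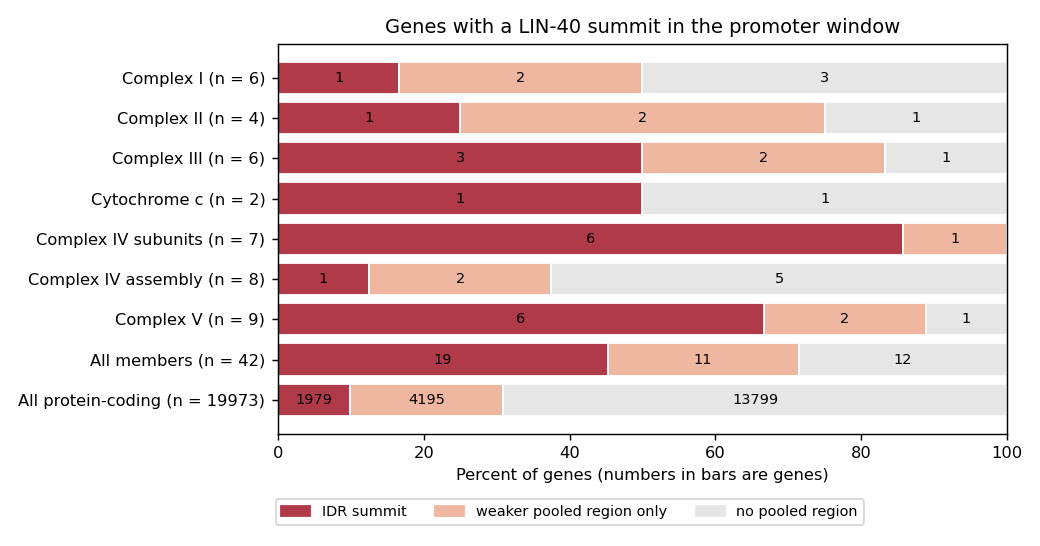
Percent of genes in each complex, in all 42 members and in all 19973 nuclear protein-coding genes that had an IDR summit in the promoter window, only a weaker region of the pooled list, or no pooled region. The numbers in the bars are genes. Complex IV subunits had an IDR summit at 6 of 7 genes and complex IV assembly factors at 1 of 8, against 1979 of 19973 protein-coding genes.

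The wider lists gave higher counts on both sides. A region of the pooled list of any strength lay in the window of 30 of the 42 genes, where the background was 30.9%. Among the 6132 strongest pooled regions, double the number in the IDR list, summits lay in the window of 23 genes, where the background was 16.0%. The 3066 strongest regions of replicate 3 alone reached 19 genes against a background of 9.98%, and those of replicate 4 alone also reached 19 genes against a background of 9.9%. The strongest regions of both replicates held 17 genes in common, and all 17 also had an IDR summit. The other genes with an IDR summit were atp-5, below the first 3066 regions in replicate 3, and cox-10, below them in replicate 4.

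Complex I takes electrons from NADH. Its called gene was nuo-1, which encodes the flavoprotein subunit that binds NADH. The region at nuo-1 had a signal of 126 in the pooled list, 56.6 in replicate 3 and 63.8 in replicate 4, and ranked 2234 of the 3066. In the pooled list it was the weakest of the 19, while in replicate 3 atp-5 and in replicate 4 cox-10 were lower. Its summit lay 300 bp upstream of the start and 333 bp upstream of rpl-36.A, a ribosomal protein gene on the opposite strand. The starts of 2 noncoding RNA genes were nearer, C09H10.11 with the summit 11 bp upstream and C09H10.13 with the summit 64 bp downstream. The core subunit gene nuo-5 and the accessory subunit gene nuo-3 had pooled regions of 37.0 and 31.8, below the lowest signal of the IDR list, 99.97. The accessory subunit genes nuo-4 and nuo-6 had a region in replicate 3 alone, at 16.0 and 27.9. The core subunit gene nuo-2 had a region in no list.

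Complex II oxidizes succinate and also belongs to the citric acid cycle. The flavoprotein gene sdha-1 on X had a signal of 301 in the pooled list, 143 in replicate 3 and 154 in replicate 4. Its summit lay 209 bp upstream of the sdha-1 start and 26 bp upstream of the snoRNA gene D2021.6. It also lay 7 bp downstream of the start of D2021.5, a noncoding RNA gene on the opposite strand. The region therefore cannot be given to one of these genes by position. The membrane anchor gene sdhd-1 had the highest pooled signal among the 23 genes that were not called, 84.9, 43.2 in replicate 3 and 40.9 in replicate 4. The iron-sulfur subunit gene sdhb-1 had 42.9 in the pooled list, with 22.1 in replicate 3 and 21.3 in replicate 4. The second flavoprotein gene, sdha-2, had no pooled region and 20.7 in replicate 3 alone. Among the called genes the lowest strongest signal was that of nuo-1, 126. In the pooled list nuo-1 ranked 2234 and sdhd-1 3767, and the IDR list holds 3066 summits.

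Complex III carries electrons from coenzyme Q to cytochrome c. The gene of its cytochrome c1 subunit, cyc-1, had a signal of 320 in the pooled list, 150 in replicate 3 and 170 in replicate 4, with the summit 277 bp upstream. The core protein gene ucr-2.2 on X had 353 in the pooled list, 164 in replicate 3 and 184 in replicate 4, with the summit 199 bp upstream, and no other gene's window held that summit. The core protein gene ucr-2.1, also on X, had 249 in the pooled list, 140 in replicate 3 and 113 in replicate 4. Its summit lay 297 bp upstream of ucr-2.1 but 89 bp upstream of nmat-1, a gene on the opposite strand, which is the nearer start. Among members with a region in both replicates, ucr-1, which encodes the other core protein, had the log2 ratio of replicate 4 to replicate 3 that was farthest from 0, at -2.04. Replicate 3 held a region of 58.0 at 173 bp upstream of ucr-1, rank 2493. The strongest in replicate 4 was a different region, of 14.1, rank 17235, 59 bp downstream of another annotated start. The ratio therefore sets unlike regions side by side. The only pooled region in the window, of 18.7, lay elsewhere again, 169 bp downstream of an inner start, so it is no pooled value for the replicate 3 region. The small subunit gene ucr-11 had 29.4 in the pooled list and ucr-2.3 had 9.59 in replicate 3 alone.

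Cytochrome c shuttles between complexes III and IV. Of its genes, cyc-2.1 had 2 IDR summits, of 158 and 114 in the pooled list. The stronger had 69.2 in replicate 3 and 90.6 in replicate 4. It lay 138 bp upstream of the inner of the 2 annotated starts of cyc-2.1, in an intron of the longer transcript, and also 755 bp upstream of tctn-1 on the same strand. A far stronger pooled region, with a signal of 1462 and rank 19 of 30000, lay 1053 bp upstream of cyc-2.1, just outside the window, and 175 bp upstream of Y17G9B.5. The ribosomal protein gene rpl-20 had the same strongest signals in its window as Y17G9B.5, 674.1 in replicate 3 and 789.2 in replicate 4. On the same strand, rpl-20 ends 111 bp upstream of cyc-2.1. The paralogue cyc-2.2 had a region in no list.

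Complex IV, cytochrome c oxidase, had the highest median signal, 429 over its 6 called subunit genes. The median was 320 over the 3 called genes of complex III and 226 over the 6 of complex V. The values overlapped, with atp-1 of complex V at 541 and cox-4 of complex IV at 141. The strongest region lay at cox-5A, with 1208 in the pooled list, 564 in replicate 3 and 639 in replicate 4. It ranked 27 in all 3 lists. Its summit lay 285 bp upstream, in a region 537 bp wide with 1 summit, and no other protein-coding window held it.

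Other subunit genes of complex IV followed at lower signal. The cox-5B region had 533 in the pooled list, 249 in replicate 3 and 289 in replicate 4, and it peaked 32 bp upstream. The cox-6B region had 441 in the pooled list, 200 in replicate 3 and 242 in replicate 4. It lay 150 bp upstream of the inner start of cox-6B, in an intron of the longer transcript, and its nearest start was that of Y71H2AM.20, on the opposite strand 104 bp away. The same summit lay 800 bp upstream of nduc-2, which encodes a subunit of complex I. The cox-6A region had 416 in the pooled list, 196 in replicate 3 and 223 in replicate 4, but lay 770 bp upstream of cox-6A and 56 bp upstream of the snRNA gene F54D8.7. It was the farthest from its member gene.

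The remaining complex IV subunit genes were weaker. The cox-6C region had 204 in the pooled list, 78.4 in replicate 3 and 127 in replicate 4, and lay 375 bp upstream of cox-6C and 425 bp upstream of grld-1. The start of the noncoding RNA gene F29C4.9 was nearer, with the cox-6C summit 93 bp downstream of it. The cox-4 region had 141 in the pooled list, 68.3 in replicate 3 and 72.0 in replicate 4, 401 bp upstream. The start of a pseudogene on the opposite strand was nearer, with the cox-4 summit 98 bp downstream of it. The gene that was not called, cox-7C, had 23.2 in the pooled list, 6.31 in replicate 3 and 18.3 in replicate 4.

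Assembly factors of complex IV insert haem and copper or help the subunits into the membrane, and are not part of the finished enzyme. Of the 8, cox-10, whose product makes the haem precursor of the enzyme, had 127 in the pooled list, 75.8 in replicate 3 and 52.0 in replicate 4, 119 bp upstream of its start and 189 bp upstream of Y38E10A.33 on the opposite strand. The start of the noncoding RNA gene Y38E10A.30 was nearer, with the summit 26 bp downstream of it. The cox-10 region ranked 1658 in replicate 3 and 3576 in replicate 4. The copper delivery gene cox-17 had 65.6 in the pooled list and cox-11 had 10.1. The assembly gene cox-14 had no pooled region in its window, but replicate 4 alone held one of 111 at 156 bp upstream, rank 1129. The haem gene cox-15, the assembly gene cox-16 and the copper gene cox-19 had a region in no list, and the membrane insertion gene cox-18 had 7.61 in replicate 3 and 19.9 in replicate 4. A pooled region of any strength lay at 3 of the 8 assembly genes and at all 7 subunit genes, where the background is 30.9% of protein-coding genes.

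**Figure D2:**
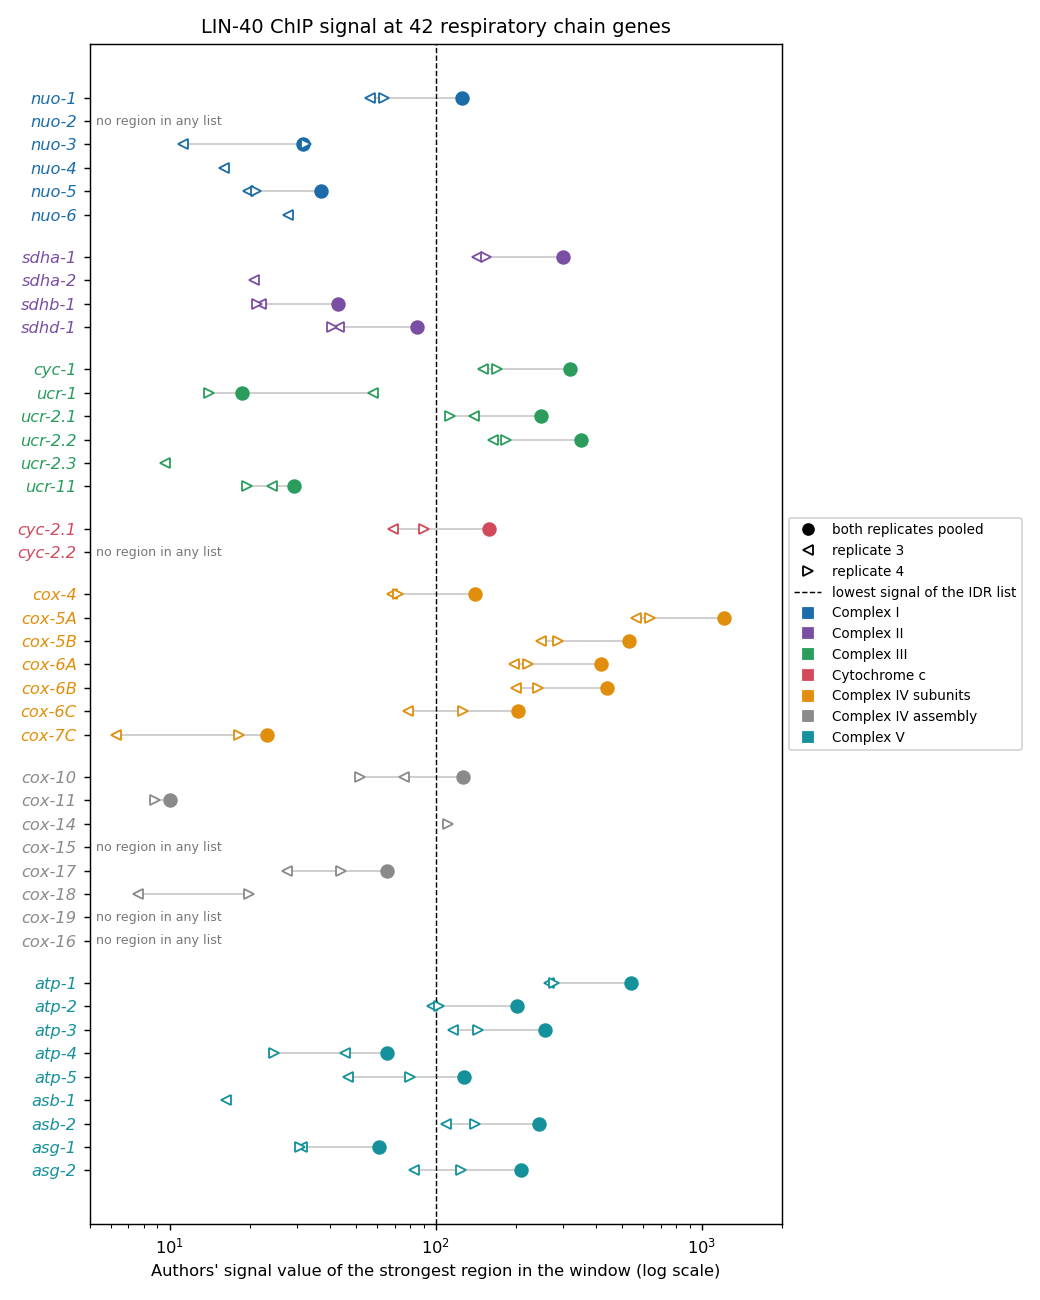
Signal value of the strongest region in the promoter window of each of the 42 genes, on a log axis, for the pooled list (filled circles), replicate 3 (left triangles) and replicate 4 (right triangles), coloured by complex, with the lowest pooled signal of the IDR list (99.97) as a dashed line that applies to the circles. The circle of cox-5A, at 1208, stands apart to the right, those of the 19 called genes begin at 126, and those of the genes not called end at 84.9.

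Complex V makes ATP with a catalytic head, a membrane rotor and stalks that join them. The head genes were both called. The alpha subunit gene atp-1 had 541 in the pooled list, 268 in replicate 3 and 277 in replicate 4, with the summit 1 bp upstream of the start and 189 bp upstream of mcrs-1 on the opposite strand. The beta subunit gene atp-2 had 201 in the pooled list, 97.0 in replicate 3 and 103 in replicate 4, 241 bp upstream, and the same summit lay 292 bp upstream of C34E10.10 and 295 bp upstream of C34E10.12 on the opposite strand. Both head genes thus share their summit with genes read the other way.

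The stalk gene atp-3 had 258 in the pooled list, 116 in replicate 3 and 144 in replicate 4, 62 bp upstream and 187 bp upstream of F27C1.2 on the opposite strand. The start of the noncoding RNA gene F27C1.17 was nearer to the atp-3 summit, which lay 38 bp downstream of it. The stalk gene atp-5 had 128 in the pooled list, 46.6 in replicate 3 and 79.9 in replicate 4. The summit was nearer to lmtr-3, 73 bp away on the opposite strand, than to atp-5, 246 bp away. The atp-5 region ranked 3373 in replicate 3 and 1912 in replicate 4. The stalk gene atp-4 was not called, with 65.3 in the pooled list, 45.5 in replicate 3 and 24.7 in replicate 4.

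Subunits b and g of complex V each have a pair of genes among the 42. The asb-2 region had 244 in the pooled list, 110 in replicate 3 and 140 in replicate 4, 272 bp upstream, while its partner asb-1 had no pooled region and 16.3 in replicate 3 alone. The asg-2 region had 209 in the pooled list, 82.9 in replicate 3 and 124 in replicate 4, 230 bp upstream and 308 bp upstream of glr-6, while its partner asg-1 had 61.1 in the pooled list, 31.6 in replicate 3 and 30.9 in replicate 4. In both pairs the called gene lies on X and the other on an autosome.

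The same split was seen in complexes II and III, a pattern picked out after the values were seen. Of the genes with a numbered partner of the same family name, the 5 on X (sdha-1, ucr-2.1, ucr-2.2, asb-2 and asg-2) were all called, with pooled signals between 209 and 353, and their 4 autosomal partners (sdha-2, ucr-2.3, asb-1 and asg-1) were not, with asg-1 at 61.1 the only one that had a pooled region. These 5 are all the members on X. Of the 37 autosomal members 14 were called, and the backgrounds were 11.5% of genes on X and 9.66% of genes on autosomes. The cytochrome c pair, cyc-2.1 called and cyc-2.2 not, is autosomal on both sides.

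**Figure D3:**
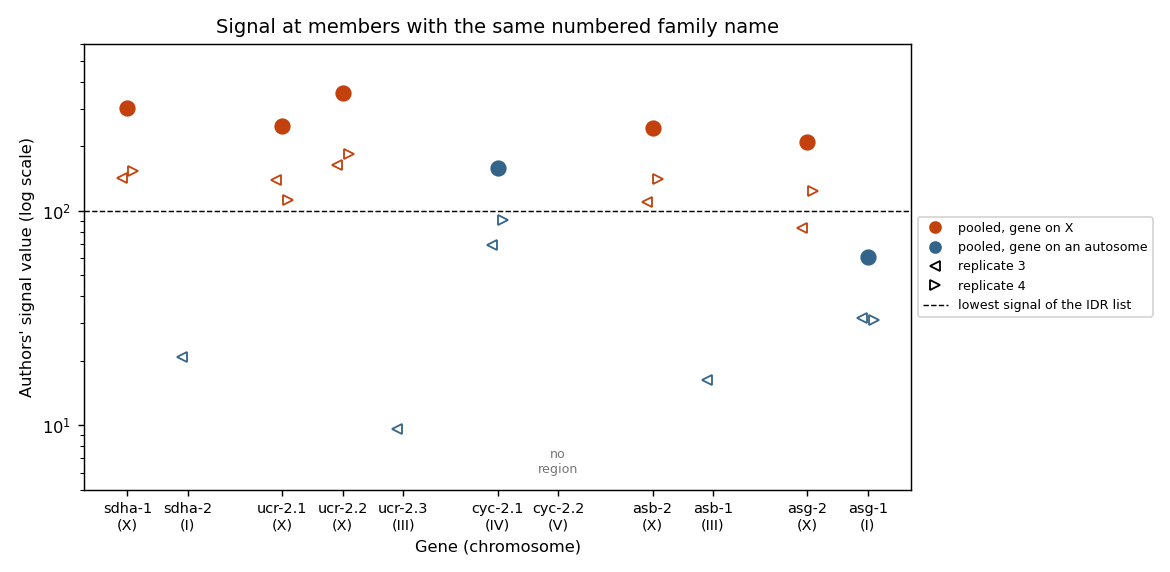
Signal values on a log axis at 11 genes that share a numbered family name, in the pooled list (filled circles) and in replicates 3 and 4 (open triangles), for genes on X and on autosomes, with the lowest pooled signal of the IDR list (99.97) as a dashed line for the circles. All 5 circles of genes on X lie between 209 and 353, and of the 4 autosomal partners only asg-1 has a circle, at 61.1.

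Positions were measured from the nearest of the gene's starts whose window held the summit, which for cyc-2.1 and cox-6B is an inner start. Each of the 19 strongest summits lay upstream of that start. So did 94.1% of the strongest summits of the 1960 other genes with an IDR summit. The window reaches 1000 bp upstream and 200 bp downstream, so it favours upstream positions. The median position was 241 bp upstream of the start in both, with quartiles of 291 and 144 bp upstream for the members and 436 and 131 bp for the other genes. Between 120 and 300 bp upstream lay 12 of the 19 summits, and 37.7% of those of the other genes. The edges of this band lie close to member summits, with nuo-1 counted at 300 bp and cox-10 left out at 119 bp. The count therefore depends on where the edges are set. By the annotation 17 of the 19 summits were in no protein-coding transcript, and those of cyc-2.1 and cox-6B were in introns. The regions were between 163 and 537 bp wide, with a median of 310 bp. The median pooled signal was 249 over the 19 members and 185 over the other genes, and 14 of the members were above the second value.

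**Figure D4:**
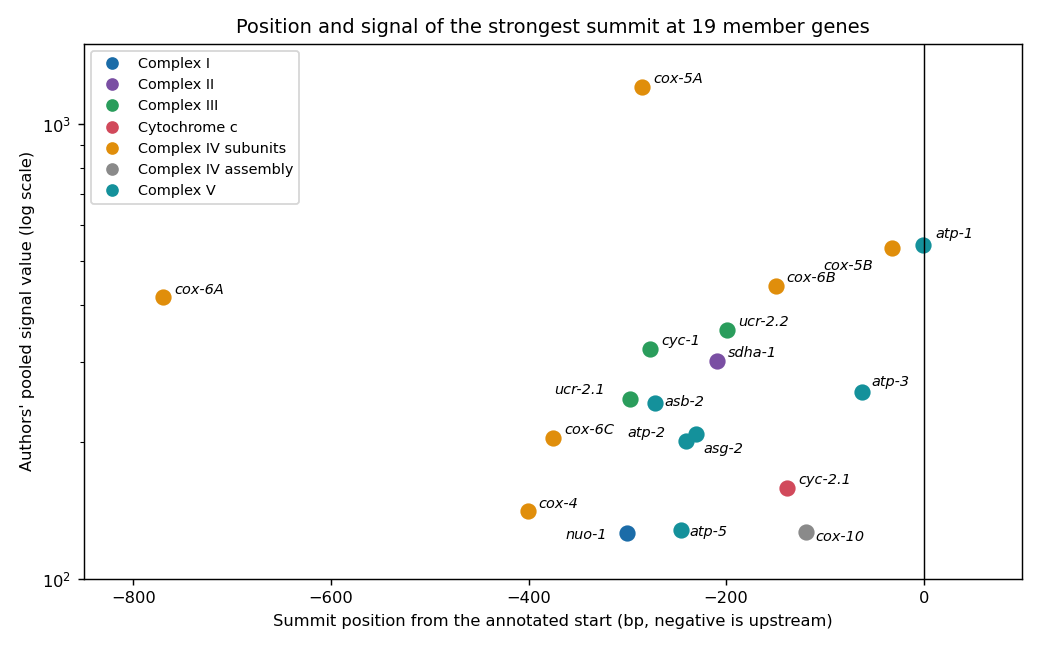
Position of the strongest IDR summit of each of the 19 called genes from the nearest annotated start in bp (negative is upstream) against its pooled signal value on a log axis, coloured by complex. All 19 points lie to the left of the start, atp-1 at 1 bp and cox-6A at 770 bp, with 12 between 120 and 300 bp upstream.

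Promoters of worm genes are often shared between neighbours. Of the 19 strongest summits, 11 were also in the window of another protein-coding gene, against 45.2% among the other genes, 10 of them with a gene on the opposite strand and 2 with one on the same strand, cox-6B having both. The member was the nearest protein-coding start for 16 summits, against 76.4% of the other genes, the exceptions being ucr-2.1, cox-6B and atp-5. A protein-coding gene on the same strand ended within 500 bp upstream, as it does inside operons, at 16 members, of which 4 were called, and at the other 26 members 15 were called. Over all protein-coding genes the shares called were 7.70% with such a neighbour and 10.5% without.

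The replicates gave similar values for the called members. The log2 ratio of replicate 4 to replicate 3 had a median of 0.18 and an SD of 0.30 over the 19 genes, between -0.55 at cox-10 and 0.78 at atp-5, and 17 of the 19 were higher in replicate 4. Over the 1937 other genes with a region in both replicates the median was 0.22 and the SD 0.42. Across the 19 genes Pearson's r of the log2 signals was 0.941 and Spearman's rho 0.947, given as a description, since the genes were called on both replicates and share their libraries. With 2 replicates the spread at a single gene rests on 1 difference. Scale and depth of the lists are unknown, so a shift of all ratios cannot be told apart from a difference in either.

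**Figure D5:**
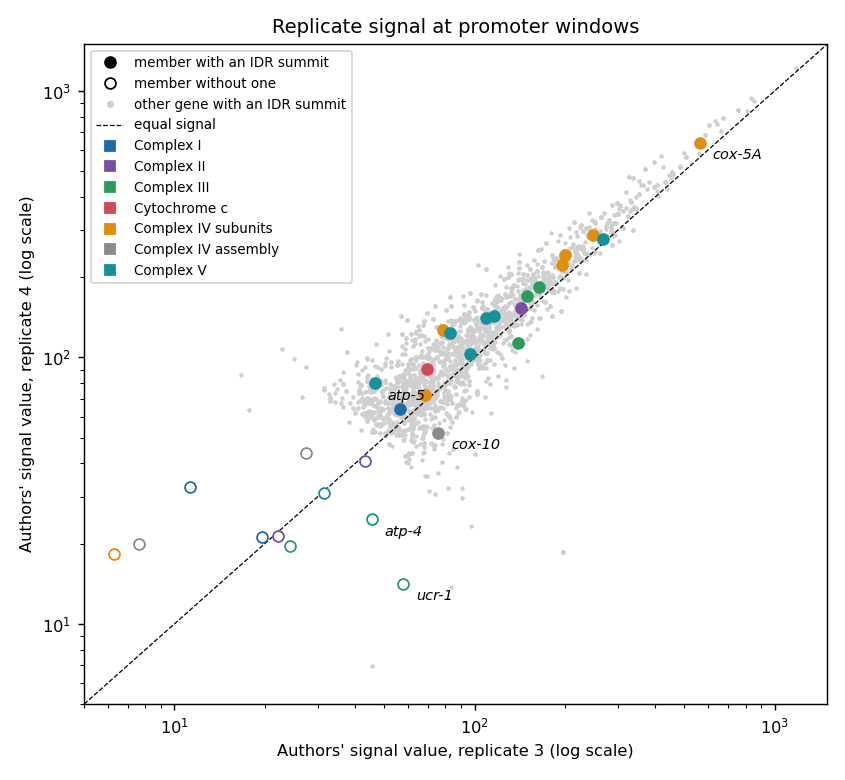
Signal value in replicate 4 against replicate 3 on log axes for members with a region in both lists (filled where called, open where not, coloured by complex) and for other genes with an IDR summit (grey), with the line of equal signal. Most of the filled points lie above the line, cox-10 lies below it, and ucr-1, at 58.0 in replicate 3 and 14.1 in replicate 4, is the open point farthest below it.

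Short motifs were counted in the 201 bases around each summit, on both strands and with overlaps allowed. GAGAGA, a repeat bound by GAGA-type factors in other animals, was found at 5 of the 19 member summits (sdha-1, ucr-2.2, cyc-2.1, cox-5A and asb-2), against 37.7% of the 1675 IDR summits in promoter windows. CTGCGTCT was found at 2, cyc-2.1 and asb-2, against 13.2% of the 1675. CACGTG, the E-box core, was found at 0 of 19, against 8.48%. TGATAA was also found at 0 of 19, against 15.6%, and a count of 0 in 19 allows a share of up to 17.6%. CCAAT was found at 4 of 19, against 28.7%. At least 1 of GAGAGA, CTGCGTCT and CACGTG stood at 5 of the 19, against 47.5%. The GC content of the windows had a median of 42.8% over the 19 and 42.3% over the 1675.

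The 300 bases of promoter from 250 before to 50 after the outermost start of all 42 genes held GAGAGA at 11, against 21.8% of protein-coding genes, CTGCGTCT at 1, against 3.55%, and CACGTG at 0, against 5.84%. They held TGATAA at 5, against 30.3%, and CCAAT at 15, against 45.7%. A match says only that the letters are there.

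A search of the 19 windows for 10-base words present in 3 or more of them, on either strand and without simple repeats, gave 3 overlapping words, all from nuo-1, atp-2 and asb-2. They cover the capitals printed above for these genes. The word CGTTGCGAGA was in the windows of 19 of the 1675 promoter summits (1.13%) and in the 300-base promoters of 44 of the 19973 genes (0.220%), 2 of which are members. The search covered 3560 distinct words and was made after the windows had been seen, so its result is a description of these 3 genes.

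Related lists of genes were counted in the same way, again with the background of 9.91%. A list of respiratory chain genes whose symbols fall outside the rule had an IDR summit at 12 of 32. The list was made from names and symbol prefixes and does not hold every such gene. Of its complex I genes 9 of 27 were called, and of the others 3 of 5, which were mev-1, mai-1 and mai-2. The strongest were nduc-2 at 441 in the pooled list, by the summit it shares with cox-6B, mev-1, the cytochrome b subunit of complex II, at 367, and ndua-8 of complex I at 298. Over both lists, 10 of the 33 complex I genes they hold were called. Genes listed by name for the citric acid cycle and pyruvate dehydrogenase had 13 of 22. They were led by dld-1, the shared dehydrogenase subunit, at 369, the succinyl-CoA ligase gene sucl-1 at 332 and the aconitase gene aco-2 at 309. That list was not limited to mitochondrial enzymes, and mdh-1, at 129, is among its called genes.

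Genes taken as mitochondrial import genes by symbol had 6 of 14. The strongest of these, tim-1 at 588, is known as the worm homologue of Timeless, a nuclear protein, and without it the count was 5 of 13. The outer membrane receptor gene tomm-20 followed at 482, and tin-9.1 and timm-17B.1 at 213. Glycolysis genes had 6 of 19, led by the hexokinase genes hxk-2 at 192 and hxk-3 at 136 with the pyruvate kinase gene pyk-1 at 166. Adenine nucleotide carriers had 1 of 4, ant-1.1 at 407, and coenzyme Q synthesis 1 of 8, coq-3 at 153. The 45.2% of the 42 members thus lay between the 59.1% of the citric acid cycle list and the 37.5% of the listed respiratory chain genes outside the rule. The intervals of these shares overlap.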

How the data were processed

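ChIP-seq of 2 biological replicates was analysed from the deposited region lists on ce11. The authors deposited for each region a signal score and the -log10 of a q-value, and the regions were called against a control alignment, per the deposited file listing. For the caller, aligner, read depth, signal scale and IDR threshold the answer is "not given in the sources used here", so neither depth nor a counting interval of the signal can be stated. Positions were counted from 1, and the lists' q-values were not used to choose regions. Genes and starts came from Ensembl 115 and sequence from RefSeq. Summits were assigned to windows with Python 3.11.15, pandas 2.3.3 and numpy 2.4.6, and the assignment was tested on simulated data. Shares have Clopper-Pearson 95% intervals (scipy 1.17.1). Every member is accounted for. Protein-coding genes outside the set are named where they share a member's strongest summit or lead a related list. Noncoding RNA genes and pseudogenes that share a summit are named only in part. The members, lists and motifs were chosen with earlier results of these data known. Alternatives changed the window, the starts, the list and the replicate. The list on ce10 gave only its lowest signal.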

Additional observations from a re-analysis of the deposited data

How the results depend on the processing

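Across 10 alternatives, 14 to 23 of the 42 genes were called, against 19, and the share of all protein-coding genes called, given in brackets, moved with the list and window (9.91% as reported). With 500 and 100 bp windows 18 were called (7.81%), without cox-6A, and with 2000 and 200 bp 21 (12.9%), with cox-14 and ucr-11 added, so that 2 assembly factors of complex IV were called. The outermost start alone gave 17 (9.12%), without cox-6B and cyc-2.1, and 0 cytochrome c genes. The nearest start alone gave 16 (7.66%), without atp-5, cox-6B and ucr-2.1. The stronger 50% of the IDR list gave 14 (5.81%), with 0 for complex I, 0 for cytochrome c and 0 for assembly factors, and the genes lost were atp-5, cox-10, cox-4, cyc-2.1 and nuo-1. Double the number of pooled regions gave 23 (16.0%), with asg-1, atp-4, cox-17 and sdhd-1 added. Under it 2 genes of complex II, 2 assembly factors and 8 genes of complex V were called, asg-1 being an autosomal partner of a gene on X. The lowest signal of the ce10 list (71.2), an alternative chosen after seeing the data, gave 20 (13.4%), with 2 of complex II. Counting any overlap of the region gave 19 (10.7%). Without replicate 4 the count was 19 (9.98%), with ucr-1 gained and atp-5 lost, and without replicate 3 it was 19 (9.9%), with cox-14 gained and cox-10 lost. Medians of signal (249) and position (241 bp upstream) kept their values under the alternatives tried for them, and with 50 bp either side of the summit CCAAT was at 10.5% of the member summits instead of 21.1%, and at 14.9% of the 1675 promoter summits instead of 28.7%. Counts of called subunits were 5 to 6 for complex IV over the window and start alternatives. Leaving out the assembly factors gave 18 called genes. No paired analysis was possible because there is 1 group. The cause of these moves was not tested beyond what each alternative changes by its construction. Signal depends on a depth and scale that are unknown here, so a gene without a region was not detected in these lists, which does not show that LIN-40 is absent there.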

Other observations

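Outside the window but within 2500 bp of a start, 2 members without an IDR summit had a pooled region above the lowest signal of the IDR list. One of 268 lay 1289 bp upstream of ucr-11, with tre-1 the nearest start, and one of 236 lay 2066 bp upstream of cox-14, with the citrate synthase gene cts-1 the nearest. Of the called genes, cox-5A had a further region of 227 at 1385 bp downstream of its start. One of 193 lay 2471 bp downstream of the atp-1 start, nearer to T26E3.7. At cox-10 one of 269 lay 1709 bp upstream, nearer to Y38E10A.22. Others lay downstream of atp-2 (171.5 at 2246 bp), atp-5 (170.9 at 1258 bp) and cox-6A (142.5 at 1761 bp). Their nearest protein-coding starts were those of prmt-5, mboa-2 and cah-1, in that order. The one upstream of cyc-2.1 is given above.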
